A study of Mus musculus with 6 samples.

Results

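The 8 genes described here encode subunits of AP1, the transcription factor dimer of keratinocytes: *Jun*, *Junb* and *Jund*, *Fos*, *Fosb*, *Fosl1* and *Fosl2*, and *Atf3*. They were taken by gene symbol from a table of 55367 gene names, and all 8 had enough counts to be tested among the 14916 genes that passed the filter on low counts. RNA was sequenced from primary keratinocytes, isolated from the skin of newborn mice of mixed C57BL/6 and 129/Sv background with the genotype Ppp1r13l flox/flox;Cre+ERT. All 6 cultures carried the floxed alleles of *Ppp1r13l*, which encodes iASPP, and a tamoxifen-activated Cre at the ROSA26 locus, which is not limited to one cell type. Cells of 3 batches were each split in 2, and tamoxifen was added to one culture of each batch 24 h after plating (iASPP-KO, n = 3) and left out of the other (iASPP-WT, n = 3). The action of the drug and the deletion of iASPP cannot be told apart in this design. Cells were kept for 4 days after the medium change, in low calcium, which holds keratinocytes back from differentiation. The labels number the batches and do not say whether each came from other animals. The p-values therefore rest on how the difference between the conditions varied across these batches, with the level of each batch fitted. For each gene this variation was estimated with information shared from all genes tested.

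AP1 proteins bind DNA as pairs joined by a leucine zipper. Jun proteins can pair with each other or with Fos proteins, Fos proteins need a Jun partner, and ATF3 pairs with Jun proteins and with other members of its own family. The dimers bind the TPA response element (TRE) or the related cyclic AMP response element (CRE). Several of the genes are immediate early genes, switched on within minutes by growth factors, stress and phorbol ester through the ERK, p38 and JNK kinases, and in epidermis AP1 is known for its part in differentiation, wound repair and inflammation. The series concerns iASPP, p63 and AP1 in keratinocytes, and the comparison of iASPP-KO with iASPP-WT addresses here whether the mRNA of the subunits differed when iASPP was deleted.

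*Ppp1r13l* was lower in the tamoxifen culture of every batch. It had 14.3, 17.7 and 5.91 CPM (each library's counts scaled to a total of 1000000, with the trimmed mean of M values, TMM, adjustment) with tamoxifen in batches 1, 2 and 3, and 32.7, 45.1 and 21.0 without it. The log2 fold change was -1.45 ± 0.184 (± standard error here and for all fold changes; adjusted p = 0.00296). The counts cover all exons, while the paper places the loxP sites around exon 8. These values therefore do not measure how far the gene was deleted. By immunofluorescence the paper reported iASPP protein absent after tamoxifen. Library totals were 20202517 to 25157117 counts, so that 3 counts correspond to 0.123 to 0.141 CPM. Basal keratinocyte markers summed to 22869 to 27418 CPM, with *Krt14* at a mean of 16023 CPM, and the 6 T cell markers to at most 0.287 CPM, with *Cd3d*, *Cd3e* and *Trac* at 0 in every culture. Melanocyte markers (6 of 6 over 1 CPM) summed to more than fibroblast markers in every culture. In batches 1, 2 and 3 they had 893, 430 and 1063 CPM in iASPP-KO and 1120, 367 and 1052 in iASPP-WT. Fibroblast markers (7 of 7 detected, none at 0) stood apart in batch 3, at 459 CPM in its iASPP-KO culture and 676 in its iASPP-WT culture, against 34.2 to 51.9 in the other 4 cultures. In the same batch the suprabasal markers summed to 1034 and 1084 CPM, against 2716 to 3627 in the others. Of that list *Sbsn* was called higher and *Krt10* lower in iASPP-KO (log2 fold changes 0.67 and -1.31). In bulk RNA, fewer cells of a type and less RNA per cell cannot be told apart.

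The start regions of *Fos*, *Jun* and *Junb* are printed because these 3 genes had the largest fold changes apart from the sparse *Fosb*, and not all in one direction. The sequences are from RefSeq on GRCm38.p6, the build of the counts, and run 5′ to 3′ on the strand of the gene from 150 bases before the annotated start site, which is base 0, to 29 bases after it. *Fos* is read from chr12:85473740-85473919 on the plus strand, *Jun* from chr4:95052193-95052372 on the minus strand and *Junb* from chr8:84978719-84978898 on the minus strand. Capitals mark the motifs found.
Fos: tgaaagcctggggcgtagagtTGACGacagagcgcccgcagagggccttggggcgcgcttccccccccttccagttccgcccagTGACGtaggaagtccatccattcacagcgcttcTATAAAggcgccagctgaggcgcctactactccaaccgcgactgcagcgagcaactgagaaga
Jun: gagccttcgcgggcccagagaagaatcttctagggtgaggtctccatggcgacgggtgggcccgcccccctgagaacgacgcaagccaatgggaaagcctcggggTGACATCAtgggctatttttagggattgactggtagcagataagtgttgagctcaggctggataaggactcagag
Junb: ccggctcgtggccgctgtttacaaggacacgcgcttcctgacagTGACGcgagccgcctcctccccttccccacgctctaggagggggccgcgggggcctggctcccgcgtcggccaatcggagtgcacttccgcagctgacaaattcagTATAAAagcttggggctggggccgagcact
The motifs were searched on both strands over the whole RefSeq window of 300 bases, except TATAAA, which was searched on the strand of the gene only. The window held 250 bases before the start site and 50 from it onward, so sites further away were not searched. Such a window was at hand for 7 of the 8 genes (none was matched for *Fosl1*). *Fos* held the CRE half-site TGACG at -129 to -125 and at -66 to -62 and a TATA box (TATAAA) at -33 to -28. *Jun* held TGACATCA, a CRE with 1 changed base, at -45 to -38. *Junb* held TGACG at -106 to -102 and TATAAA at 0 to 5, and its counted exon started 30 bases after the RefSeq start. *Fosb* and *Atf3* each held 1 TGACG (on the opposite strand in *Atf3*), and the windows of *Fosl2* and *Jund* held none of the motifs. The RefSeq start of *Jund* lay 1210 bases before its counted exon. The counted exons of *Fosl2* and *Atf3* began upstream of the RefSeq start, at -671 and -34706 relative to it. Among 32851 promoter windows, TGACG, which is also part of the full CRE TGACGTCA, was present in 20.8%, TGACATCA in 3.62% and TATAAA in 8.32%. The TRE, TGANTCA, the full CRE and the CArG box bound by SRF were in none of the 7 windows, and in 7.81%, 1.79% and 1.63% of all promoters. These matches describe letters in a window and not binding.

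Among the 8 subunits, 1 passed edgeR's test, *Junb*, which was higher in iASPP-KO, and 0 were called lower, where DESeq2 called *Jun*. The share called higher among all genes tested was 2.17%, and the share called lower was 1.95%. A wider look at the list showed *Fos*, *Fosl1*, *Fosl2*, *Junb*, *Jund* and *Atf3* with higher CPM in the tamoxifen culture of all 3 batches, 6 of 8 subunits where 19.5% of all genes tested did so. *Jun* was lower in all 3 batches, as were 19.7% of all genes. *Fosb* had no common direction. The median log2 fold change of the 8 was 0.41, beside 0.0057 over all genes tested. At an unadjusted p under 0.05 stood 6 of the 8, against 16.7% of all genes. The 8 values come from the same 6 libraries and are not independent of each other.

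**Figure D1:**
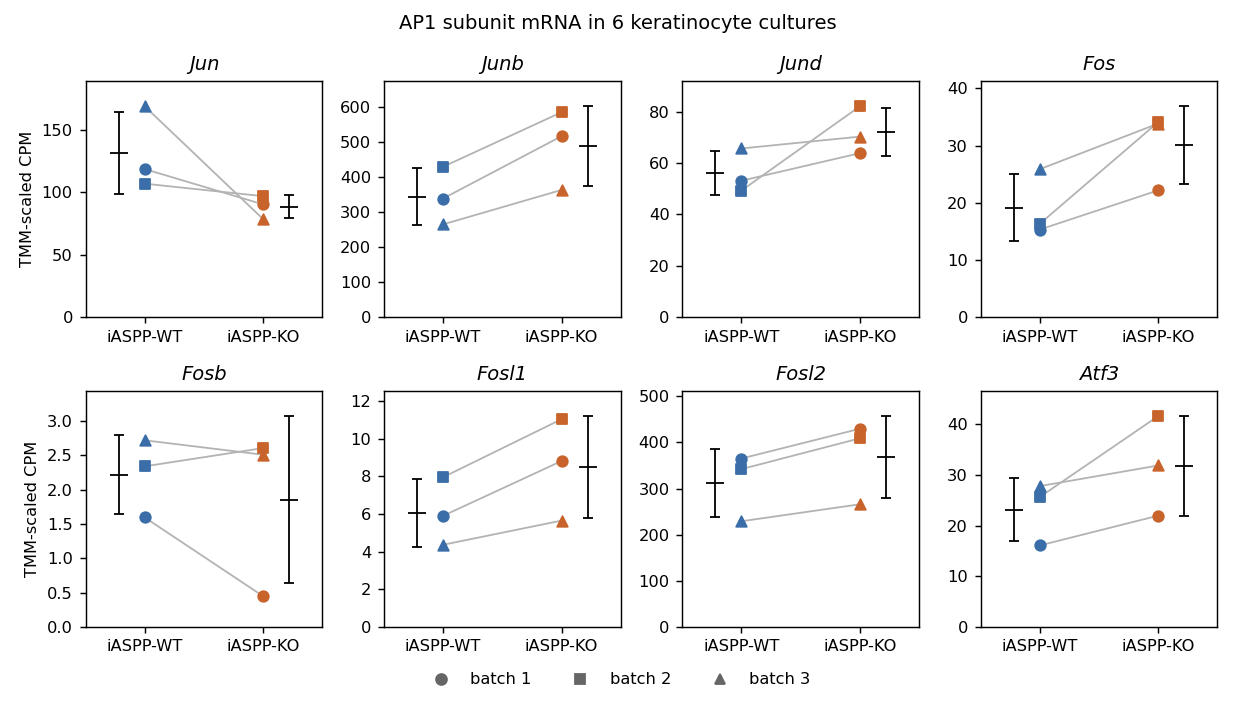
Each panel plots the TMM-scaled CPM (vertical axis, linear from 0) of one AP1 subunit in the 3 iASPP-WT (blue) and 3 iASPP-KO (orange) cultures. Grey lines join the cultures of one batch, and bars beside the points give the mean ± SD (n = 3). The lines of *Junb* run upward in every batch from 265 to 429 CPM to 363 to 585, while those of *Jun* run downward.

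*Junb*, which encodes a Jun protein abundant in epidermis and known to restrain proliferation and inflammation there, was counted over 1 exon at chr8:84976910-84978718 on the minus strand of mm10. Its levels in batches 1, 2 and 3 were 516, 585 and 363 CPM in iASPP-KO, against 339, 429 and 265 in iASPP-WT. Each iASPP-KO culture was above its partner, but the groups overlapped, since the batch 3 iASPP-KO culture was below the batch 2 iASPP-WT culture. The means were 488 ± 114 and 344 ± 82.3 CPM (SD, n = 3), and the fitted fold change was 1.42 (95% interval 1.20 to 1.67), with a log2 fold change of 0.50 ± 0.108 and an adjusted p of 0.0296. The log2 differences within batches 1, 2 and 3 were 0.61, 0.45 and 0.46. The call was lost when batch 1 or batch 2 was left out (adjusted p = 0.190 and 0.153), with log2 fold changes of 0.45 and 0.54.

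*Jun*, which encodes c-Jun, the main substrate of JNK and a promoter of keratinocyte proliferation, was counted over 1 exon at chr4:95049034-95052222 on the minus strand. It had 90.2, 96.8 and 78.4 CPM in iASPP-KO, against 119, 107 and 169 in iASPP-WT. Here the groups did not overlap, which held for 1 of the 8 subunits and for 10.7% of all genes tested. The fitted log2 fold change was -0.55 ± 0.170 (95% interval -0.92 to -0.17), and the adjusted p of 0.120 missed the threshold. Batches differed in size, at -0.39, -0.14 and -1.11. The largest gap was in batch 3, whose iASPP-WT culture was the highest of all 6 and also had the highest sum of fibroblast markers. *Col1a2* and *Col3a1* of that list were called lower in iASPP-KO (log2 fold changes -0.55 and -0.87), and the part of fibroblasts in the value of *Jun* was not tested. Without batch 3 the log2 fold change was -0.27 (adjusted p = 0.227). With DESeq2 in place of edgeR the adjusted p was 0.0464, and with every gene of at least 1 count kept it was 0.00270. A gene on the opposite strand, *Junos*, had 6 to 30 counts per library, and the counting used strand.

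*Jund*, the third Jun gene, whose product is usually described as a slow and steady partner that restrains growth, was counted over 1 exon at chr8:70698949-70700616 on the plus strand. It had 63.9, 82.1 and 70.3 CPM in iASPP-KO, against 53.1, 49.3 and 65.7 in iASPP-WT. The batch 1 iASPP-KO culture was below the batch 3 iASPP-WT culture, so the groups overlapped. The log2 fold change was 0.37 ± 0.146 (adjusted p = 0.233), and the batches gave 0.27, 0.73 and 0.10. Without batch 3 it was 0.50, and the adjusted p was 0.00883. The opposite-strand gene *Gm11175* had 2 to 26 counts per library, against 1134 to 1829 for *Jund*.

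The fitted values of the 3 Jun genes did not share a sign, under any of the scalings tried. *Junb* counts were 2.86, 4.02 and 1.57 times those of *Jun* in iASPP-WT and 5.72, 6.04 and 4.63 times in iASPP-KO. This ratio, which does not depend on the scaling of a library, was higher in the iASPP-KO culture of each batch, by 1.00, 0.59 and 1.56 on the log2 scale. *Jund* counts over *Jun* counts were also higher in each batch, at 0.708, 0.848 and 0.897 beside 0.448, 0.461 and 0.389. With 3 pairs an exact sign-flip permutation test cannot go below p = 0.25, so no p is given for these ratios.

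**Figure D2:**
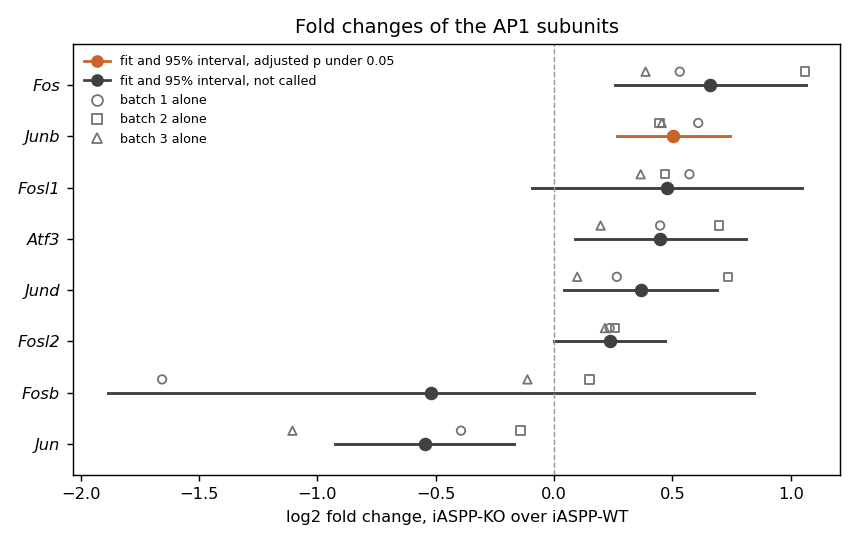
Log2 fold changes of the 8 AP1 subunits in iASPP-KO over iASPP-WT (horizontal axis). Filled points and lines are the edgeR fit with its 95% interval, and open symbols are single batches. *Junb* (orange) is the subunit with an adjusted p under 0.05, the interval of *Jun* lies below 0 from -0.92 to -0.17 without passing after adjustment, and that of *Fosb* runs from -1.89 to 0.84.

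*Fos*, the immediate early gene of c-Fos, at chr12:85473890-85477273 on the plus strand, had 22.2, 34.1 and 33.9 CPM in iASPP-KO, against 15.3, 16.3 and 25.9 in iASPP-WT. The cultures of batches 2 and 3 were the highest with tamoxifen, and the batch 1 iASPP-KO culture was below the batch 3 iASPP-WT culture. *Fos* had the largest fitted fold change of the 8, 1.58 (95% interval 1.20 to 2.09), with a log2 fold change of 0.66 ± 0.181 and an adjusted p of 0.0767, which missed the threshold. The batches gave 0.53, 1.06 and 0.39. Without batch 3 the adjusted p was 0.00241, and without batch 2 it was 0.452, each from a fit with fewer pairs than the main test. With every gene of at least 1 count kept it was 0.0136.

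*Fosl2*, the gene of Fra-2, a Fos protein of epidermis, at chr5:32135801-32157842 on the plus strand, was the most abundant Fos gene. It had 430, 409 and 266 CPM in iASPP-KO, against 365, 342 and 229 in iASPP-WT. The differences within batches were close to each other, at 0.23, 0.26 and 0.22 on the log2 scale, and the batch 3 iASPP-KO culture was below 2 iASPP-WT cultures. The fit gave 0.24 ± 0.105 (95% interval 0.0019 to 0.47, adjusted p = 0.294).

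*Fosl1*, which encodes Fra-1, a Fos protein tied to migration and wound edges, at chr19:5447547-5455946 on the plus strand, was low, at 98 to 246 counts per library. It had 8.82, 11.0 and 5.65 CPM in iASPP-KO, against 5.90, 7.96 and 4.36 in iASPP-WT. Every iASPP-KO culture was above its partner, by 0.57, 0.47 and 0.37 on the log2 scale, and the fitted value was 0.48 ± 0.257 (95% interval -0.095 to 1.05, adjusted p = 0.404). *Ccdc85b*, on the opposite strand, had 169 to 306 counts.

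*Fosb*, the gene of FosB and of its shorter isoform ΔFosB, at chr7:19302696-19310051 on the minus strand, was the lowest subunit, with 10, 58 and 59 counts in iASPP-KO and 34, 57 and 61 in iASPP-WT. In CPM this was 0.445, 2.60 and 2.51 against 1.59, 2.34 and 2.72. The 10 counts of the batch 1 iASPP-KO culture set the fitted log2 fold change of -0.52 ± 0.614 (adjusted p = 0.753). Without batch 1 the value was 0.02, and a difference in *Fosb* was not detectable at this depth.

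*Atf3*, which encodes a stress-induced factor of the ATF family that often acts as a repressor, at chr1:191170296-191218039 on the minus strand, had 21.96, 41.6 and 31.9 CPM in iASPP-KO, against 16.1, 25.6 and 27.8 in iASPP-WT. Batch 1 was lowest in both conditions, and its iASPP-KO culture was below 2 of the iASPP-WT cultures. The log2 fold change was 0.45 ± 0.163 (95% interval 0.09 to 0.81, adjusted p = 0.188), with batches at 0.45, 0.70 and 0.20. Without batch 3 it was 0.58, and the adjusted p was 0.0317.

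Levels of the subunits also differed between batches. *Junb*, *Fosl1* and *Fosl2* were lowest in batch 3 in both conditions, at 0.690, 0.630 and 0.648 of the mean of batches 1 and 2 in iASPP-WT. *Fos*, *Jun*, *Jund* and *Atf3* were instead highest in batch 3 among the iASPP-WT cultures, at 1.64, 1.498, 1.28 and 1.33 times that mean. Among the iASPP-WT cultures alone, the highest level of a subunit was 1.33 (*Jund*) to 1.82 (*Fosl1*) times the lowest. A fit that ignored the batches gave each of the 8 subunits an adjusted p of 0.973 or more.

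**Figure D3:**
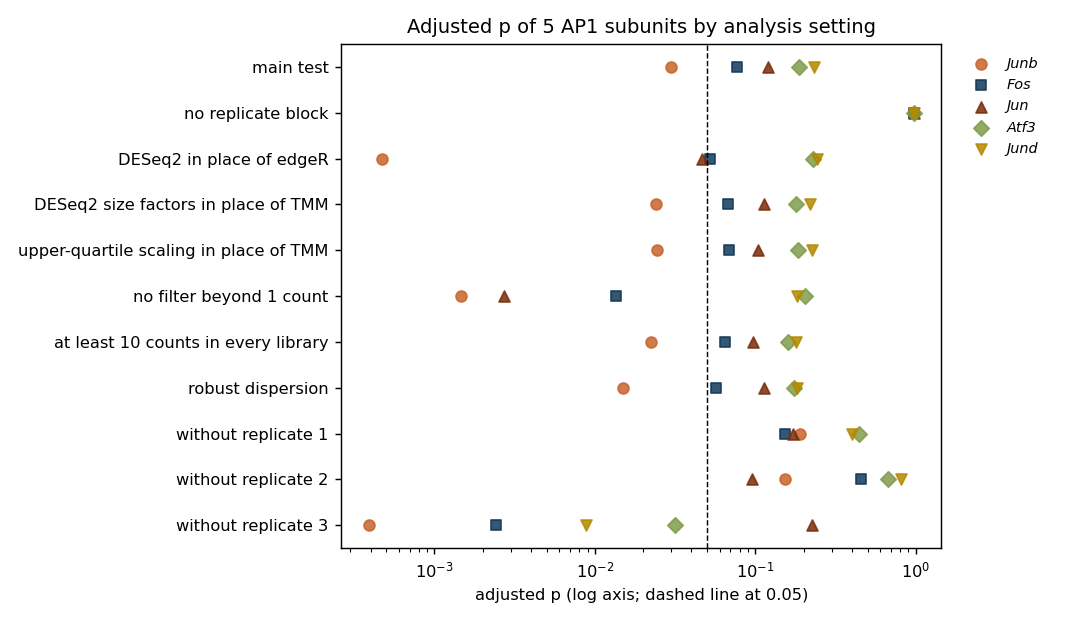
Adjusted p (horizontal log axis, dashed line at 0.05) of the 5 subunits with the smallest adjusted p, in the main test and under each alternative setting (rows). *Junb* lies left of the line in the main test and in 7 of the 10 alternatives, while *Fos*, *Jund* and *Atf3* cross it without batch 3, *Fos* and *Jun* cross it with no filter beyond 1 count, and *Jun* crosses it with DESeq2.

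To compare the subunits with each other, CPM were divided by the exon length in the count table (CPM per kb). In iASPP-WT the order was *Junb* at 190 ± 45.5 CPM per kb (SD, n = 3), *Jun* at 41.2 ± 10.3, *Jund* at 33.6 ± 5.14, *Fosl2* at 32.2 ± 7.52, *Atf3* at 10.8 ± 2.90, *Fos* at 8.15 ± 2.48, *Fosl1* at 2.99 ± 0.886 and *Fosb* at 0.355 ± 0.0916. Neighbours kept this order in every iASPP-WT culture except *Jund* and *Fosl2*, which held it in 1 of 3. In iASPP-KO *Jun*, at 27.7 ± 2.93, stood behind *Junb* at 270 ± 62.8, *Jund* at 43.2 ± 5.54 and *Fosl2* at 38.03 ± 9.21, and below *Fosl2* in all 3 cultures. *Jund* exceeded *Fosl2* there in 2 of 3 cultures. *Atf3*, *Fos*, *Fosl1* and *Fosb* followed in the same order as in iASPP-WT, at 14.8 ± 4.56, 12.8 ± 2.90, 4.18 ± 1.33 and 0.297 ± 0.195. The long *Fosl2* exons matter for its place: with the length of the longest GENCODE transcript it ranked second in both conditions.

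*Junb* alone made up 60.2%, 66.1% and 50.7% of the summed subunit mRNA per length in iASPP-WT and 67.9%, 66.7% and 61.3% in iASPP-KO. *Jun* made up 11.95%, 9.34% and 18.3% in iASPP-WT and 6.73%, 6.26% and 7.51% in iASPP-KO. The share of *Junb* was higher and that of *Jun* lower with tamoxifen in every batch, and the 3 Jun genes together kept a close range, 82.4% to 83.7% in iASPP-WT and 81.7% to 83.7% in iASPP-KO. Their mean paired difference was -0.053 percentage points, with single batches at 1.36, -0.602 and -0.921. The sum over the 8 subunits was 311, 359 and 289 CPM per kb in iASPP-WT and 420, 485 and 327 in iASPP-KO, higher with tamoxifen in each batch. Since *Junb* fills most of the sum, this total follows *Junb*.

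**Figure D4:**
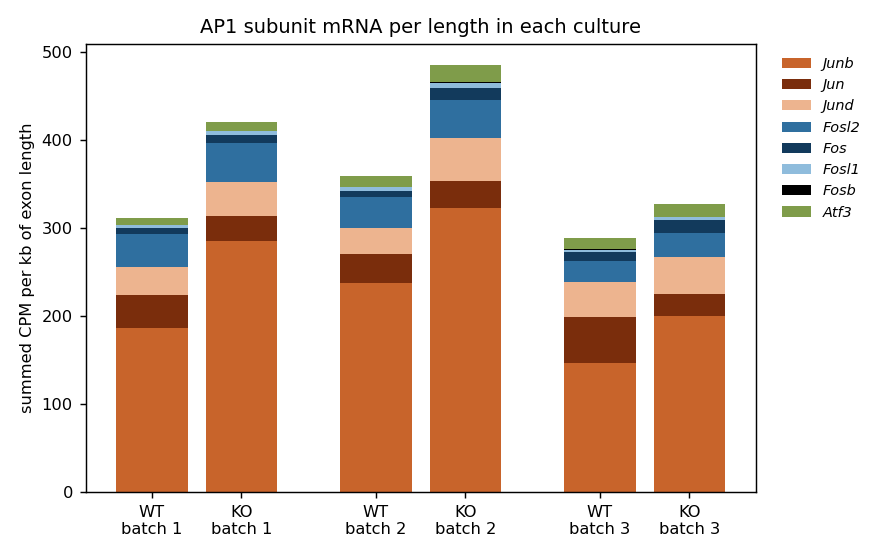
Stacked bars give the CPM per kb of exon length (vertical axis, from 0) of the 8 AP1 subunits in each culture, in pairs of one batch. The *Junb* segment is the tallest in all 6 cultures and taller with tamoxifen in each batch, and the *Jun* segment is shorter.

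The genes whose levels followed a subunit most closely over the 6 libraries were picked by the Pearson r of log2 CPM, a description of 6 points from 3 batches that all genes share. They were *Slc18a1* and *Slc3a2* for *Junb* (r = 0.997 for both), *Rsrc2* and *Kctd9* for *Jun* (0.973 and 0.972), *Shf* and *Eif2ak1* for *Jund* (0.990 and 0.981), *Unc5b* and *Tspan3* for *Fos* (0.992 and 0.991), and *Mpzl2* and *Gas7* for *Fosl2* (0.997 and 0.996). *Sh3tc1* and *Lgals3* were nearest to *Fosl1* (both 0.998), *Chrnb2* and *Pm20d2* to *Fosb* (0.983 and 0.981), and *Gm38403* and *Adam12* to *Atf3* (0.997 and 0.984). Of these 16 genes *Lgals3*, the gene of galectin-3, passed the test, with a log2 fold change of 0.46 and an adjusted p of 0.0451.

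Among the other leucine zipper factors that can pair with AP1 proteins or compete for their sites, 2 of 22 tested genes rose (9.09%, beside 2.17% of all genes tested) and 0 fell by edgeR (2 and 0 by DESeq2). An unadjusted p under 0.05 was reached by 4 higher and 1 lower, 22.7% of the list, beside 16.7% of all genes. The list had a median log2 fold change of 0.10. *Ddit3*, the gene of the stress factor CHOP, rose from 39.9, 65.9 and 53.1 CPM in iASPP-WT to 66.8, 99.2 and 128 in iASPP-KO (log2 fold change 0.87 ± 0.148, adjusted p = 0.0119), and it passed without each batch in turn. *Cebpb*, the gene of a C/EBP factor of differentiating keratinocytes, rose from 50.3, 58.0 and 50.2 to 79.8, 75.9 and 74.3 CPM (0.54 ± 0.123, adjusted p = 0.0389), with no overlap between the groups, and lost the call without batch 1 (0.221) or batch 2 (0.128). The 2 most abundant genes of the list did not pass, *Atf4* at 459 and 453 CPM in iASPP-KO and iASPP-WT and *Nfe2l1* at 459 and 366.

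The kinases above AP1 were listed in 2 groups. Of 21 genes of the JNK cascade tested, 1 rose (4.76%) and 0 fell by edgeR, beside 2.17% and 1.95% of all genes tested. The median log2 fold change of the list was 0.09. An unadjusted p under 0.05 was reached by 2 higher and 1 lower (14.3%, beside 16.7% of all genes), and DESeq2 called 2 higher and 0 lower. These shares lie near those of all genes. The gene that rose was *Gadd45a*, which encodes a stress-induced activator of an upstream kinase, with 38.1, 43.9 and 27.2 CPM in iASPP-WT and 48.4, 65.7 and 49.5 in iASPP-KO (0.60 ± 0.145, adjusted p = 0.0490). Its call was lost without batch 1 (0.0649) or batch 2 (0.216). The kinase genes themselves did not pass, among them *Mapk8* (JNK1, -0.40 ± 0.153, adjusted p = 0.209) and *Mapk9* (JNK2, 0.04 ± 0.156, adjusted p = 0.941), both named here after their values were seen. The most abundant genes of the list, the JNK scaffold *Spag9* and *Gadd45b*, had log2 fold changes of 0.23 and 0.40 (adjusted p = 0.389 and 0.0869).

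Of 26 genes of the ERK and p38 cascades and the serum response factor group, 0 rose and 1 fell (3.85%, beside 1.95% of all genes tested) by edgeR and by DESeq2 alike, and the median was -0.0043. At an unadjusted p under 0.05 were 3 higher and 3 lower, 23.1% of the list, beside 16.7% of all genes. These shares also lie near those of all genes. The gene that fell was *Srf*, whose product drives *Fos* and other immediate early genes. Its levels were 47.8 to 53.6 CPM in iASPP-WT and 26.4 to 37.98 in iASPP-KO (-0.61 ± 0.148, adjusted p = 0.0489). The groups did not overlap, and the call was lost without batch 1 (0.0900) or batch 2 (0.344). *Map2k1* (MEK1), among the most abundant genes of the list, had 142 CPM in iASPP-KO, against 143 in iASPP-WT.

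Of 32 immediate early genes outside the AP1 family, 4 rose by edgeR (12.5%, beside 2.17% of all genes tested). By the same test 1 fell (3.13%, near the 1.95% of all genes tested), and the median log2 fold change was 0.16. At an unadjusted p under 0.05 stood 7 higher and 4 lower, 34.4% of the list, beside 16.7% of all genes. DESeq2 called 4 higher and 2 lower. *Ier3*, an early gene that protects against cell death, rose from 277, 445 and 172 CPM in iASPP-WT to 623, 853 and 381 in iASPP-KO (1.08 ± 0.111, adjusted p = 0.00122), and passed without each batch in turn. *Egr1*, the gene of a zinc finger factor driven by SRF, rose from 9.23, 17.2 and 5.79 to 20.8, 32.0 and 11.2 CPM (1.01 ± 0.188, adjusted p = 0.0179), and *Ier5* by 0.59 ± 0.110 (adjusted p = 0.0179). Both missed the threshold without batch 1 (0.0825 and 0.0905) or batch 2 (0.106 and 0.141). The other that rose was *Btg1*, an antiproliferative gene, which also missed the threshold without batch 1 (0.100) or batch 2 (0.162). *Sgk1*, a kinase gene induced by serum and glucocorticoid, fell from 234, 200 and 396 CPM to 129, 170 and 183 (-0.74 ± 0.159, adjusted p = 0.0301), and missed the threshold without batch 1 (0.101). *Klf6*, next to *Ier3* the most abundant gene of the list, had 351 and 376 CPM in iASPP-KO and iASPP-WT.

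None of the 26 tested regulators of AP1 proteins (ubiquitin ligases, SUMO enzymes, coactivators and corepressors) passed edgeR's test in either direction, nor did DESeq2 call any, while 2 were higher and 0 lower at an unadjusted p under 0.05 (7.69%, below the 16.7% of all genes). The lowest log2 fold change was -0.32, the median 0.05 and the highest 0.37. The most abundant were *Nedd4*, a ubiquitin ligase gene, at 367 and 388 CPM in iASPP-KO and iASPP-WT, and *Tcf20*, a coactivator gene, at 338 and 335.

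Genes known as AP1 targets in skin, most of them of differentiation, inflammation and matrix remodelling, were also listed. Of 51 tested, 14 rose (27.5%) and 4 fell (7.84%), beside 2.17% and 1.95% of all genes tested. The median log2 fold change was 0.43. *Ccl20*, a chemokine gene, rose from 83.7, 165 and 9.13 CPM in iASPP-WT to 291, 471 and 85.6 in iASPP-KO (2.13 ± 0.265, adjusted p = 0.00282). *S100a8* and *S100a9*, the genes of the calprotectin subunits, rose by 1.98 ± 0.169 and 1.93 ± 0.183 (adjusted p = 0.00109 for both). The other 11 that rose, between 0.46 and 1.49, were *Vegfa*, *Tgm1*, *Cdkn1a*, *Sprr1b*, *Il1a*, *Ereg*, *Ccl2*, *Cxcl1*, *Hmox1*, *Pdpn* and *Mmp10*, which encode cornified envelope proteins, cytokines and growth factors, stress enzymes, a cell cycle inhibitor and a protease, among others. The genes that fell were *Ccna2*, the S phase cyclin gene (-1.499 ± 0.155, adjusted p = 0.00123), *Flg*, the filaggrin gene (-0.89 ± 0.208, adjusted p = 0.0428), *Tnc*, the tenascin gene (-0.76 ± 0.140, adjusted p = 0.0166), and *Egfr*, the EGF receptor gene (-0.48 ± 0.110, adjusted p = 0.0400). The most abundant genes of the list did not pass, *Krt14* at 15913 and 16134 CPM in iASPP-KO and iASPP-WT and *Krt5* at 5001 and 5202. Without each batch in turn, 9 of the 14 and 2 of the 4 kept their calls. Of those that fell, *Tnc* was lost without batch 1 (0.0748) or batch 2 (0.111), and *Egfr* likewise (0.102 and 0.280). Of those that rose, *Vegfa*, *Tgm1*, *Cdkn1a* and *Ereg* were lost without batch 1 or batch 2, and *Mmp10* without batch 2. Macrophage markers (5 of 8 over 1 CPM, none at 0 throughout) also summed higher in iASPP-KO in each batch. The sums were 66.5, 73.1 and 86.4 CPM against 44.0, 60.5 and 68.1 in iASPP-WT. The most abundant of the 8 was *Cd68*, at a mean of 28.5 CPM, and 1 was called, *Csf1r* (higher, log2 fold change 1.11). Sums of marker RNA do not count macrophages. Any part of such cells in the rise of *Ccl2*, *Cxcl1*, *S100a8* and *S100a9* was not tested. The target list was chosen with earlier results of these data known and holds targets of many other factors, so its counts are not independent evidence of a direction.

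**Figure D5:**
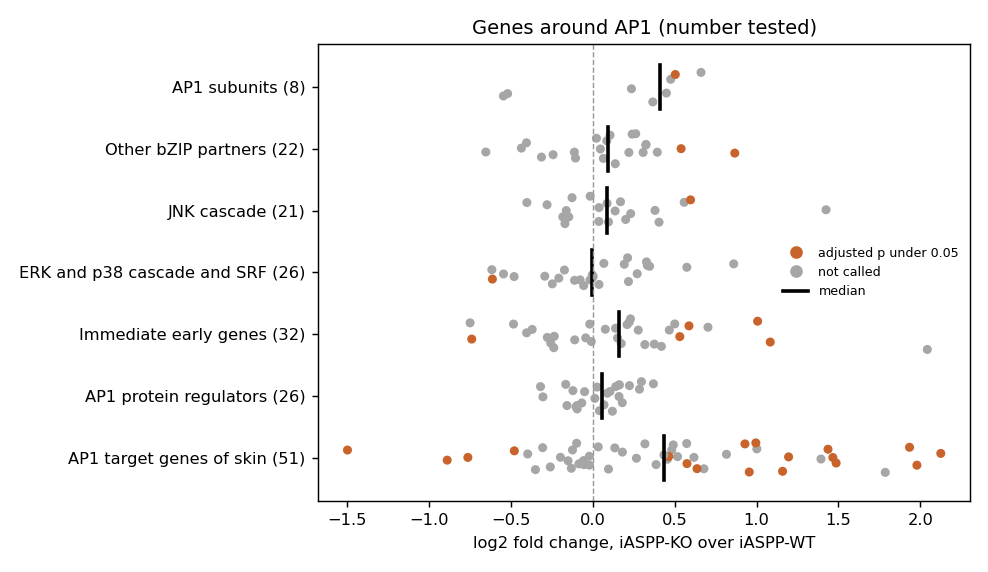
Log2 fold changes in iASPP-KO over iASPP-WT (horizontal axis) of each tested gene in 7 lists (rows, with the number tested). Orange points have an adjusted p under 0.05, grey points do not, and black bars are medians. The AP1 subunits and the AP1 target genes have the highest medians, 0.41 and 0.43, and the target list has the most calls, 14 higher and 4 lower.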

How the data were processed

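RNA of 6 cultures was depleted of ribosomal RNA and sequenced as single reads of 42 nt. The authors trimmed reads with Cutadapt, aligned them with STAR to mm10 and deposited unnormalized counts of reads per gene name, made with featureCounts 2.0.0 over exons (GENCODE vM25) and by strand. Their deposited table of DESeq2 fold changes and p-values was not used.

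All 6 columns of counts were tested together with edgeR 4.0.16 in R 4.3.3 (filterByExpr, TMM, quasi-likelihood fit of batch and condition, Benjamini-Hochberg adjustment over 14916 genes, threshold 0.05). Batch pairs the cultures in the labels and in the study's model, and same-batch cultures deviated together from their group means (r = 0.527, 0.679 and 0.749 over 9127 genes). Values within a batch compare the log2 CPM of its 2 cultures, computed with prior count 2. No library was a copy of another (chi-square per gene 40.1 to 169). Totals were 20202517 to 25157117 counts, and intervals cover the model's error. That error holds counting error and the variation across batches of the difference between the conditions, with the level of each batch fitted. Its estimate was moderated over all genes tested, with 2 residual degrees of freedom per gene beside 8.17 shared prior ones. No window of 42 bases in a subunit's longest transcript (GENCODE vM21, also GRCm38) occurred in another gene.

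The 8 subunits and all gene lists were chosen with earlier results of these data known. Named were the 8 subunits, *Ppp1r13l*, the called genes of each list with the 3 largest fold changes per direction that moved one way in every batch, the 2 most abundant genes of each list, and the 2 genes most like each subunit. Of the genes so named, 1 is not reported here. The endothelial marker list, not named in the results, summed to 3.78 to 20.4 CPM. Alternatives were other scalings and filters, DESeq2 1.42.0, robust dispersion, no batch term and each batch left out. Fits without a batch estimate the error from fewer pairs, so calls gained or lost there are not comparable with those of the main test.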

Additional observations from a re-analysis of the deposited data

How the results depend on the processing

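Each subunit was refitted under 10 alternatives, which made 80 values: 70 kept their direction and their side of the threshold, 6 gained a call, 3 lost one and 1 turned (*Fosb*, whose value ran from -0.90 to 0.023 without each replicate, the latter without replicate 1). Without the replicate block edgeR called 0 genes higher and 0 lower (360 and 331 at an unadjusted p under 0.05; DESeq2 was run with the block), so 0 subunits and 0 genes of any list were called, with *Junb* still at a log2 fold change of 0.50. With no filter beyond 1 count, 624 genes were called higher and 491 lower, with 2 subunits higher (*Junb* and *Fos*), 1 lower (*Jun*), 2 JNK genes higher, 1 ERK and p38 gene higher and 2 immediate early genes lower. DESeq2 called 1 subunit (*Jun*) lower, 2 JNK genes higher and 2 immediate early genes lower, and the robust dispersion 2 immediate early genes lower. Leaving out each replicate gave 169 to 793 genes higher and 117 to 662 lower, 0 to 4 subunits higher and 0 lower. The bZIP partners had 1 to 4 higher and 0 to 1 lower, the JNK cascade 0 to 2 higher, the ERK and p38 list 0 to 2 higher and 0 to 1 lower, the immediate early genes 1 to 9 higher and 0 to 2 lower, the AP1 regulators 0 to 1 lower, and the AP1 targets 9 to 21 higher and 2 to 7 lower. The larger counts came without replicate 3, the batch with the high fibroblast markers (793 genes higher, beside 323 in the main test). That fit also had fewer pairs to estimate the error from, and the cause was not tested.

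The paired difference in the Jun share of subunit mRNA, -0.053 percentage points, turned to 0.189 with the longest transcript's length and to 0.159 without *Atf3*, and ran from -0.761 to 0.381 without each replicate, so its sign depended on these settings. With that other length 3 subunits changed rank in iASPP-WT and 2 in iASPP-KO. Counts of 10 to 61 per library limit *Fosb*.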
